A study of Danio rerio with 67 samples.

Results

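Neurotransmitter receptor genes were followed through single cells of the adult zebrafish spinal cord, taken by fluorescence sorting. The set takes every gene ID whose symbol begins with the stem of an ionotropic or metabotropic glutamate receptor, a GABA-A receptor, a glycine receptor or an acetylcholine receptor, and that had 5 or more reads in at least 1 cell. Of 32266 gene IDs in the table, 99 carried such a symbol and 43 of these reached 5 reads in a cell. Those 43 are the members, 42 of them receptor genes and 1, GRID2IP, the gene of delphilin, a scaffold protein that binds delta glutamate receptors and is no receptor itself. The read counts therefore chose the members, and the levels below describe them.

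The cells came from fish of the line Tg(olig2:eGFP), in which green fluorescent protein is driven by regulatory sequence of olig2, a gene that oligodendrocyte and motor neuron progenitors share. The data hold 35 cells from fish with a sham operation and 32 cells from fish whose cord had been transected 7 days earlier. Both groups carried the transgene, both were adult, and cord rostral to the lesion, or from the same level of sham fish, was dissociated with papain and sorted for living fluorescent cells. Each operation was 1 pool of 9 cords, with sham cells in plate columns 1 to 6 and lesion cells in columns 7 to 12, so operation, pool and plate column cannot be told apart. Cells of a pool are not replicates of an operation, and no test was made and no p-value is given.

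Oligodendrocyte progenitor cells (OPCs) of mammals receive synapses from neurons and carry AMPA, NMDA and GABA-A receptors on their membrane. As those cells differentiate into myelinating oligodendrocytes, the synapses and most of these receptors are lost. AMPA, NMDA, kainate and delta receptors are assembled from subunits of the ionotropic glutamate receptor family, whereas metabotropic receptors signal through G proteins. GABA-A, glycine and nicotinic receptors are pentameric channels, so the subunits found together in a cell bear on which channel it could build.

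The cells fell into 2 kinds by plp1b, the gene of a main myelin protein. Levels are given in CPM, the reads of a gene in every 1000000 reads on genes. No cell lay between 1000 and 15000 CPM of plp1b. The highest of the low cells had 614 CPM and the lowest of the high cells 19557 CPM. With a boundary at 10000 CPM there were 29 plp1b-high and 6 plp1b-low cells after the sham operation, and 17 plp1b-high and 15 plp1b-low cells after the lesion. The labels name the sorted cells OPCs, but the plp1b-high cells had a median of 173094 CPM (sham) and 169875 CPM (lesion) summed over 24 matched oligodendrocyte markers, against 1695 CPM and 2582 CPM in plp1b-low cells. PDGFRA, a defining OPC marker, had no read in any cell, and CSPG4, the gene of the NG2 proteoglycan, reached 5 reads in 1 cell, a plp1b-low lesion cell. Some other OPC markers were high in plp1b-low cells. The bcan level there was 1456 CPM (sham) and 1889 CPM (lesion), against 1.92 and 14.7 CPM in plp1b-high cells. For cspg5a the values were 1096 and 177 CPM against 0.309 and 0 CPM. Of the OPC markers compared, 15 of 19 (sham) and 20 of 25 (lesion) were at least 2-fold higher in plp1b-low cells. Those lower by as much numbered 2 and 3. olig2 was detected in every cell, where detected means 5 or more reads. Cells held 245408 to 771417 reads on genes and 1503 to 6198 genes with a read. The cells are called here by their plp1b level, and a cell number only names a cell.

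Receptor genes were found mainly in the plp1b-low cells. A sham plp1b-low cell had 2 to 11 members detected, with a median of 10.5, and a lesion plp1b-low cell had 1 to 16, with a median of 4. A sham plp1b-high cell had 0 to 3, with a median of 0, and a lesion plp1b-high cell had 0 to 2, with a median of 1. These counts include GRID2IP. Over receptor genes alone, the ranges in plp1b-low cells were 2 to 11 (sham) and 0 to 15 (lesion), with medians of 10.5 and 3. In plp1b-high cells they were 0 to 2 and 0 to 1, with medians of 0 and 0. In words, 5 of 6 sham plp1b-low cells lay above every plp1b-high cell, whereas the lesion plp1b-low cells overlapped the plp1b-high cells at their lower end. Thinned to 301650 reads per cell, which left out 7 of the 67 cells (3, 1, 0 and 3 in the order sham high, sham low, lesion high, lesion low), the medians in the same order were 0, 10, 1 and 2.5. The medians of genes with a read were 2154 in sham plp1b-high, 2986 in sham plp1b-low, 2875 in lesion plp1b-high and 3464 in lesion plp1b-low cells. In each operation the plp1b-low class had, by median, more genes with a read and more members. Between the plp1b-low classes, the lesion one had more genes with a read and fewer members. The part of gene number in the member counts was not tested.

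**Figure D1:**
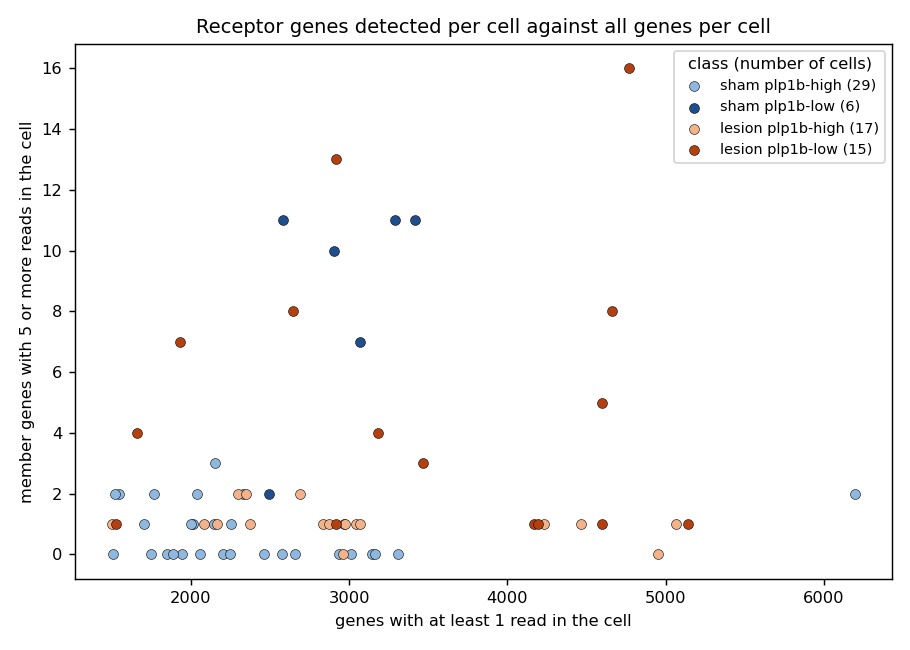
Member genes with 5 or more reads in a cell (vertical axis) against all genes with at least 1 read in that cell (horizontal axis); each point is 1 cell, coloured by operation and plp1b level. Every cell with 4 or more members is plp1b-low, and the sham plp1b-low cells with 7 to 11 members have gene numbers that plp1b-high cells also have.

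GRID2IP took 7.24 CPM of the sham and 17.7 CPM of the lesion plp1b-high reads. With it left out, at least 1 receptor gene was detected in 9 of 29 sham plp1b-high cells (31.03%, exact 95% binomial interval 15.3 to 50.8) and in 7 of 17 lesion plp1b-high cells (41.2%, 18.4 to 67.1). The same count was 6 of 6 in sham plp1b-low cells (100%, 54.1 to 100) and 13 of 15 in lesion plp1b-low cells (86.7%, 59.5 to 98.3). Intervals of shares treat the cells of 1 pool as separate draws and do not cover the spread between fish or pools. Intervals of reads below cover read counting only. They can be too narrow even for that, since several reads can come from 1 molecule. The 42 receptor genes together took 38.4 CPM of sham plp1b-high reads and 46.7 CPM of lesion plp1b-high reads. They took 3593 CPM in the sham and 2557 CPM in the lesion plp1b-low cells. In bulk terms, a class sum cannot tell fewer cells with a gene from less RNA per cell, and the values per cell that follow separate these.

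**Figure D2:**
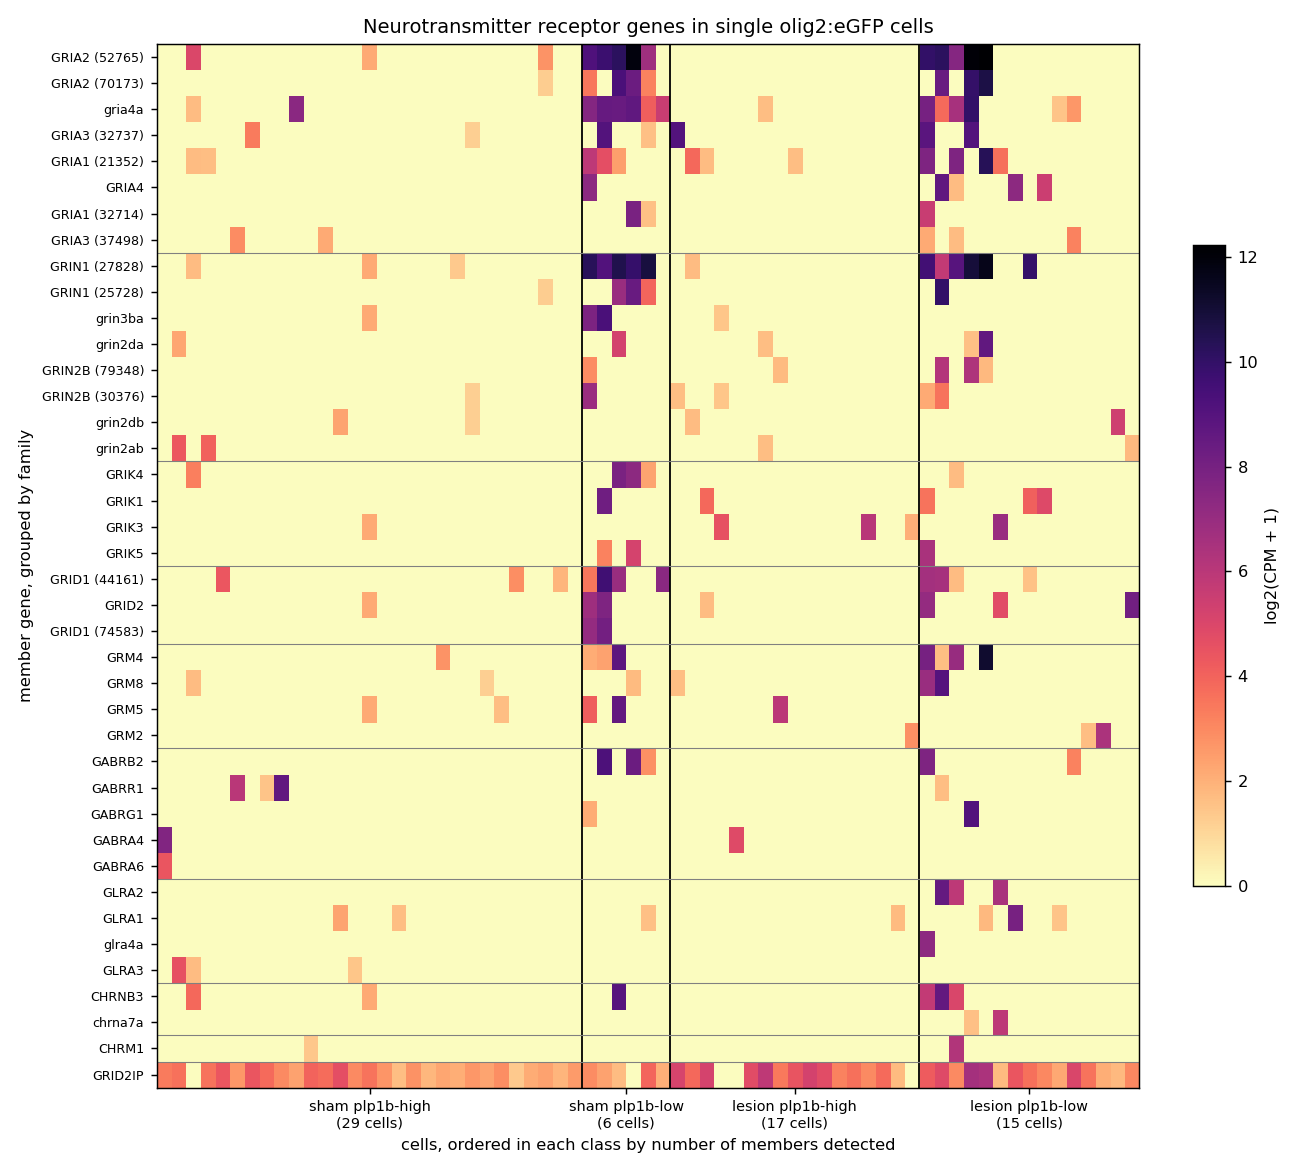
Level of 40 of the 43 members (rows, grouped by family and ordered by reads) in each of the 67 cells (columns, by class), as log2(CPM + 1) from pale (0) to black. The 5 digits behind shared symbols are the end of the Ensembl ID. Dark cells gather in the plp1b-low columns, in AMPA and NMDA rows first, while GRID2IP is pale to medium in all 4 classes.

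AMPA receptor genes, whose channels carry fast excitatory current, led the set. The highest member was GRIA2 on chromosome 14 (ENSDARG00000052765, from 35408071 to 35473299 on GRCz10), which encodes the subunit that in mammals makes the channel nearly impermeable to calcium once its RNA is edited. The 6 sham plp1b-low cells had 3883, 1177, 860, 591, 105 and 0 CPM of it. In the lesion plp1b-low cells it stood at 4760, 4252, 1161, 1035 and 179 CPM in 5 cells, and the remaining 10 cells had no read. Most sham plp1b-low cells were thus high and most lesion plp1b-low cells at 0, with the positive cells of both operations over the same range. Of the plp1b-high cells, 1 sham cell reached 30.6 CPM, 2 more sham cells were under 6 CPM at 5.59 and 3.54 CPM, and no lesion cell had a read. Over the class sums, sham plp1b-low cells had 869 times the CPM of plp1b-high cells by counting (555 to 1446), and lesion plp1b-low cells at least 2044-fold more than the 3 counts that no read allows over the class. Without sham cell 33 the sham log2 ratio, taken after adding 1 CPM to each class, went from 8.88 to 7.69, and without lesion cell 5 the lesion one went from 9.67 to 8.99. Exons of this gene overlap PDGFC on the other strand and another annotated gene on its own strand, so its count is uncertain.

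The second GRIA2 gene, on chromosome 1 (ENSDARG00000070173), was found in fewer cells. Its values were 642, 323, 9.90 and 8.11 CPM in 4 sham plp1b-low cells and 0 in the other two. They were 1632, 990 and 343 CPM in 3 lesion plp1b-low cells and 0 in the remaining 12. All 5 cells with 5 or more reads of it also had the chromosome 14 gene, and it had 1 read in plp1b-high cells. The class levels were 167 CPM in the sham and 216 CPM in the lesion plp1b-low cells, and the log2 ratios to plp1b-high cells were 7.30 and 7.76. These went to 6.03 without sham cell 34 and to 6.86 without lesion cell 10.

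gria4a (ENSDARG00000037496), a gene of the GRIA4 subunit, was the member found in every sham plp1b-low cell. Those cells had 402, 350, 347, 188, 46.8 and 16.2 CPM. In lesion plp1b-low cells it was detected in 4 of 15, at 1026, 251, 90.8 and 12.9 CPM, and 2 more cells had fewer than 5 reads. The cells of the sham class were all positive, and most cells of the lesion class were at 0. Outside the plp1b-low cells, 1 sham plp1b-high cell stood apart at 164 CPM and gave nearly all of the 7.30 CPM of that class. The log2 ratios of plp1b-low to plp1b-high cells were 4.58 (sham) and 6.53 (lesion), the latter 4.30 without lesion cell 5. GRIA1 on chromosome 14 (ENSDARG00000021352) was low in sham plp1b-low cells, at 59.4, 24.4 and 4.54 CPM in 3 cells. After the lesion 4 plp1b-low cells had 1282, 213, 212 and 11.7 CPM. GRIA4 (ENSDARG00000059368) was at 162 CPM in 1 sham plp1b-low cell and at 403, 160, 42.8 and 2.27 CPM in 4 lesion plp1b-low cells. Exons of gria4a, GRIA4, this GRIA1 gene and 3 more AMPA members also overlap other annotated genes.

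NMDA receptor genes, whose channels need glutamate, a co-agonist and depolarisation to open, came next. GRIN1 on chromosome 21 (ENSDARG00000027828, from 11375973 to 11410343) encodes the subunit that every NMDA receptor contains. It was at 1809, 1467, 1240, 951, 546 and 0 CPM in the 6 sham plp1b-low cells. In lesion plp1b-low cells it was at 3145, 1945, 986, 763, 490 and 53.6 CPM in 6 cells and at 0 in 9. As with GRIA2, the positive cells of the operations overlapped and the share of cells at 0 was larger after the lesion. In plp1b-high cells it never passed 3.54 CPM, with 3 reads over all 29 sham cells and 1 read over all 17 lesion cells. The log2 ratios of plp1b-low to plp1b-high cells were 9.65 (sham) and 8.86 (lesion, 8.23 without lesion cell 10).

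The second GRIN1 gene, on chromosome 5 (ENSDARG00000025728), was at 339, 122 and 14.2 CPM in 3 sham plp1b-low cells and at 1005 CPM in a single lesion cell. grin3ba, of the GRIN3 type that binds glycine and in mammals lowers the calcium flow of NMDA receptors, was at 640 and 221 CPM in 2 sham plp1b-low cells. It had no read in any of the 15 lesion plp1b-low cells. Its log2 ratio of sham plp1b-low to plp1b-high cells was 6.37, and 4.81 without sham cell 31. The GRIN2 subunits, which bind glutamate, were far below GRIN1. Per length, GRIN1 genes summed to 193 reads per kilobase of counted exon, scaled to 1000000 reads, in sham and 112 in lesion plp1b-low cells, against 2.67 and 8.02 for the 5 GRIN2 members. Of the 11 plp1b-low cells with a GRIN1 gene, 5 had a GRIN2 gene detected, and 1 further cell had a GRIN2 gene without GRIN1.

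**Figure D3:**
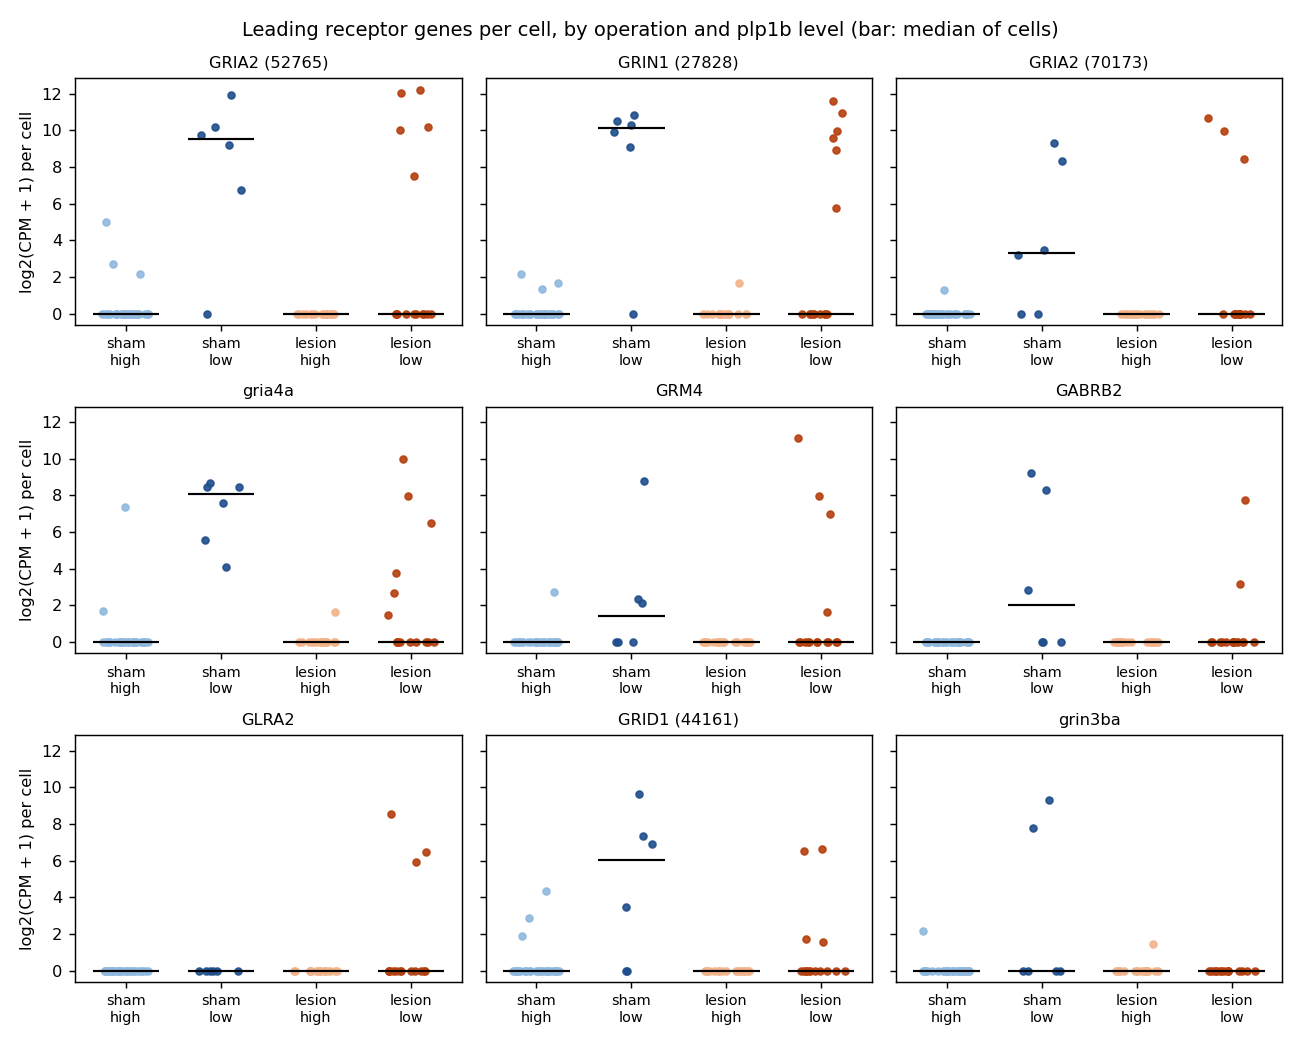
log2(CPM + 1) per cell of 9 members with a high class level per length, for the 4 classes of sham or lesion and plp1b-high or plp1b-low cells; points are cells, spread sideways at random, and the bar is the median of the class. The medians of GRIA2 (ENSDARG00000052765), GRIN1 (ENSDARG00000027828) and gria4a are above 0 in sham plp1b-low cells and at 0 in the other classes, and the positive lesion cells reach the sham levels.

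GRIA2 and GRIN1 were met in the same cells. Among the 21 plp1b-low cells, the chromosome 14 GRIA2 gene was detected in 10 and the chromosome 21 GRIN1 gene in 11. They were together in 10 and both missing in 10. gria4a was detected in 10 plp1b-low cells, 9 of them with that GRIA2 gene. An AMPA gene of any kind was detected in 14 plp1b-low cells, and 4 of those had no GRIA2 gene at 5 reads. Per length, the 2 GRIA2 genes summed to 250 in sham and 223 in lesion plp1b-low cells on that scale of reads per kilobase, above the 78.8 and 65.9 of the 6 GRIA1, GRIA3 and GRIA4 members. These joint detections are a description of 21 cells from 2 pools.

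Kainate and delta receptor genes were sparser. Of 4 kainate members, 3 were detected in each plp1b-low class, in 3 of 6 sham and 4 of 15 lesion cells. GRIK4, a subunit that works only together with other kainate subunits, was at 231, 158 and 4.06 CPM in sham plp1b-low cells and had 1 read over the lesion plp1b-low cells. GRIK3 was among the few receptors seen in lesion plp1b-high cells, at 64.4, 22.2 and 3.05 CPM. Delta receptors are not opened by glutamate and act at synapses through cerebellin and neurexin partners. GRID1 on chromosome 12 (ENSDARG00000044161) was at 791, 163, 120 and 9.90 CPM in 4 sham plp1b-low cells and at 98.9, 92.1, 2.27 and 1.96 CPM in 4 lesion ones. The second GRID1 gene, on chromosome 17 (ENSDARG00000074583), was at 269 and 135 CPM in 2 sham plp1b-low cells and was not met in any other class. Over the family, 4 of 6 sham and 4 of 15 lesion plp1b-low cells had a delta receptor gene.

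Metabotropic glutamate receptor genes differed between single cells. GRM4, of the group that lowers cyclic AMP, was at 438 CPM in 1 sham plp1b-low cell and under 5 CPM, at 4.07 and 3.30 CPM, in 2 more. In lesion plp1b-low cells it was at 2226, 251, 125 and 2.14 CPM. Lesion cell 10 alone held 87.7% of the GRM4 reads of its class. The log2 ratio of lesion plp1b-low to plp1b-high cells was 7.41, and 4.53 without that cell. GRM5, of the group that signals through phospholipase C and calcium release, was at 381 and 16.5 CPM in 2 sham plp1b-low cells and at 0 in every lesion plp1b-low cell. A single lesion plp1b-high cell had 60.0 CPM of it. Of 13 matching metabotropic gene IDs, 4 were members.

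GABA-A receptor genes, for the chloride channel opened by GABA, were detected in 4 of 6 sham and 6 of 15 lesion plp1b-low cells. GABRB2, a beta subunit, was at 603, 319 and 6.08 CPM in 3 sham cells and at 212 and 8.01 CPM in 2 lesion cells of the plp1b-low kind. It had no read in plp1b-high cells, and its level lay mostly in sham cells, at 112 CPM over the sham and 10.3 CPM over the lesion plp1b-low class. The log2 ratio of sham plp1b-low to plp1b-high cells was 6.82, and 5.93 without sham cell 31.

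The subunits of a usual GABA-A channel were seldom detected together. An alpha, beta or gamma subunit was found in 10 of 21 plp1b-low cells. No cell had an alpha with a beta subunit, and 3 had a beta with a gamma subunit. The alpha genes GABRA4 and GABRA6 and the rho gene GABRR1 were detected in plp1b-high cells and in no plp1b-low cell. GABRR1 was at 393 and 62.7 CPM in 2 sham plp1b-high cells, and GABRA4 was at 199 CPM in a sham and 27.7 CPM in a lesion one. Matching GABA-A gene IDs numbered 21, and 13 were under 5 reads in each cell.

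Glycine receptor alpha subunits, for the other inhibitory chloride channel of the cord, were not detected in the 6 sham plp1b-low cells (0%, exact interval 0 to 45.9) and were detected in 5 of 15 lesion plp1b-low cells (33.3%, 11.8 to 61.6). These intervals take the cells of 1 pool as separate draws, so they cannot compare the operations. The difference between operations was not tested. GLRA2, an alpha subunit that in rodents prevails before birth, was at 366, 86.5 and 59.0 CPM in 3 lesion plp1b-low cells. It had no read in the other 3 classes. Its class level of 38.1 CPM was at least 95.7-fold above the plp1b-high lesion floor of 3 counts. GLRA1 was at 247 CPM in lesion cell 8 and glra4a at 155 CPM in lesion cell 11.

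Few acetylcholine receptor genes were members. Only 2 of 21 matching nicotinic and 1 of 8 matching muscarinic gene IDs were members. CHRNB3, an accessory nicotinic subunit that assembles with other subunits, was at 485 CPM in 1 sham plp1b-low cell and at 377, 53.0 and 31.8 CPM in 3 lesion plp1b-low cells. The nicotinic chrna7a reached 58.4 CPM in 1 lesion cell and the muscarinic CHRM1 reached 74.9 CPM in another. GRID2IP differed from the receptors in its spread. It was detected in 8 of 29 sham plp1b-high, 1 of 6 sham plp1b-low, 11 of 17 lesion plp1b-high and 8 of 15 lesion plp1b-low cells, and its class levels were 7.24, 5.05, 17.7 and 23.3 CPM in that order.

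**Figure D4:**
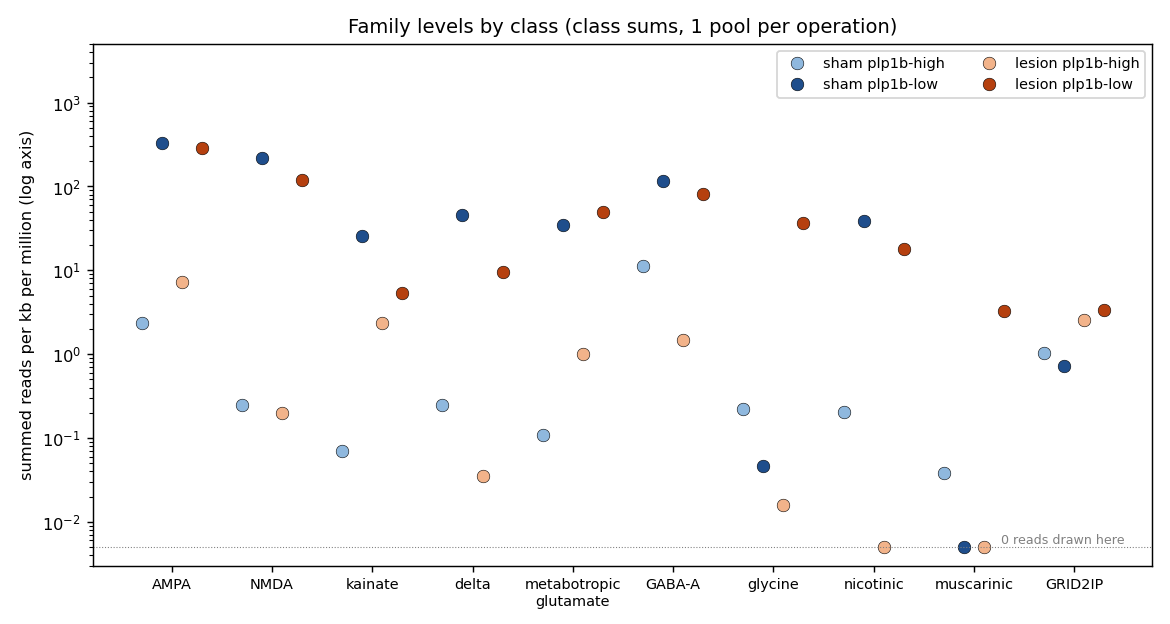
Summed level of each receptor family and of GRID2IP, in reads per kilobase of counted exon scaled to 1000000 reads, on a log axis, for the 4 classes; each point is 1 class sum from 1 pool, and a class without a read is drawn on the dotted line. AMPA and NMDA lead in plp1b-low cells at 329 and 217 (sham) and 289 and 120 (lesion), the glycine family is at 0.046 in sham and 36.7 in lesion plp1b-low cells, and GRID2IP lies between 0.73 and 3.36 in all classes.

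Across the set, 27 members were detected in plp1b-low cells and in no plp1b-high cell, where 23.8% of the 14883 genes with 5 reads in a cell did so. Another 6 were detected in plp1b-high cells alone, beside 16.7% of all genes, and 10 in both. In sham cells 31 members reached 5 reads in a cell; 24 were higher by 2-fold or more in the plp1b-low class sum and 2 lower by as much, beside 35.6% and 43.6% of all 11291 genes tested. Their median log2 ratio was 5.24 and that of all genes −0.46. In lesion cells 34 members were compared; 28 were at least 2-fold higher and 2 lower, beside 47.1% and 26.9% of 13275 genes, with a median of 3.63 against 0.84. A member seen only where it is high had to differ, and the count of reads that chose the members comes from these cells, so these shares describe the set and nothing further is read from them. The members that were lower in plp1b-low cells were GABRR1 and GABRA4 in sham cells, and GRM5 and GABRA4 in lesion cells, named after their values were seen. Many calls rest on single cells, since 11 members reached 5 reads in only 1 cell.

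In the plp1b-low cells, lesion and sham class sums of members differed in both directions, in shares near those of all genes. Of 37 members compared, 17 were higher by 2-fold or more after the lesion and 11 lower by as much, beside 52.8% and 24.9% of 12404 genes. Their median log2 ratio was 0.33, that of all genes 1.204. The leading members were lower after the lesion, each by less than 2-fold. Their log2 ratios were −0.33 for GRIA2 on chromosome 14, −0.86 for GRIN1 on chromosome 21 and −0.92 for gria4a. All 3 lay under the median of all genes. The higher members by rule were GLRA2, GRIA1 on chromosome 14, GRID2IP, GRM4 and GRIA4 at log2 ratios of 5.29, 3.34, 2.01, 1.14 and 1.05, and GRIA2 on chromosome 1 at 0.37, under 2-fold. Single cells carried most of these. Without lesion cell 6 GLRA2 was at 3.60 and GRIA4 turned to −0.77. Without lesion cell 10 GRIA1 was at 1.37, GRM4 turned to −1.73 and GRIA2 on chromosome 1 to −0.53. GRID2IP was at 1.55 without lesion cell 5 and at 2.65 without sham cell 32. In plate rows F to H alone, GRIA1 on chromosome 14 was at −2.62 and GRM4 at −0.89.

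The members lower after the lesion named here were grin3ba, GRM5, GRIK4 and both GRID1 genes. grin3ba (87.01 CPM in sham plp1b-low cells), GRM5 (67.2 CPM) and GRID1 on chromosome 17 (41.6 CPM) had no read in lesion plp1b-low cells. Against the 3 counts that allows over the class, they were at least 178-fold, 137-fold and 85.0-fold lower by counting alone. GRIK4 went from 66.8 to 0.163 CPM and GRID1 on chromosome 12 from 139 to 11.9 CPM. Each was detected in 2 or 3 sham cells, so each difference rests on few cells of 1 pool. Without sham cell 34 the log2 ratio of GRM5 was −1.74 instead of −6.09 and that of GRIK4 −4.86 instead of −5.87. Without sham cell 31 those of grin3ba, GRID1 on chromosome 17 and GRID1 on chromosome 12 were −4.90, −4.22 and −2.47 instead of −6.46, −5.41 and −3.44.

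**Figure D5:**
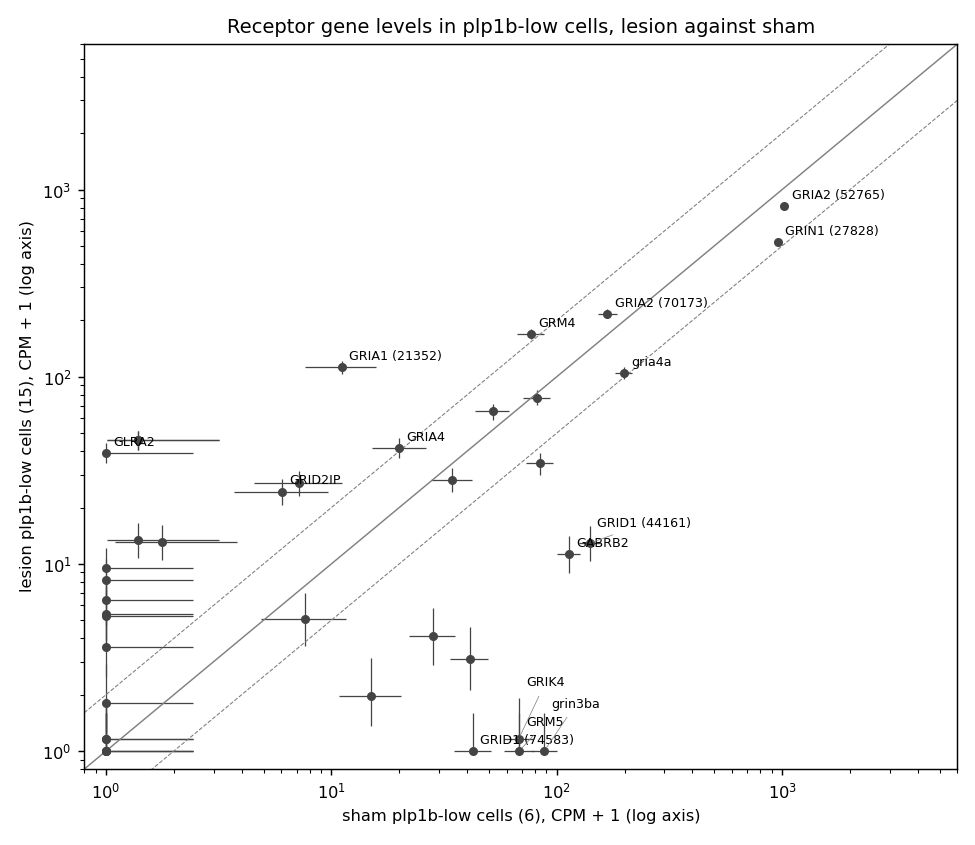
Class level of 40 of the 43 members in the 15 lesion (vertical) and 6 sham (horizontal) plp1b-low cells, as CPM + 1 on log axes; bars are exact 95% Poisson intervals of the summed reads and cover counting error only. The solid line marks equal levels and the dashed lines a 2-fold difference. GRIA2 (ENSDARG00000052765), GRIN1 (ENSDARG00000027828) and gria4a lie within 2-fold, GLRA2 is at 0 in sham cells, and grin3ba and GRM5 are at 0 in lesion cells.

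The plp1b-high cells gave few reads to compare. Of 16 members there, 4 were at least 2-fold higher and 5 lower after the lesion, beside 30.3% and 30.1% of 11347 genes, and the medians were −0.55 for members and −0.04 for all genes. GRID2IP was at 7.24 CPM in the sham and 17.7 CPM in the lesion plp1b-high cells. The highest receptor level in this lesion class, 32.8 CPM of GRIA3 on chromosome 5 (ENSDARG00000032737), came from 1 cell at 529 CPM. Over all cells of each operation, 23 of 43 members were higher and 10 lower after the lesion, beside 36.5% and 22.1% of 14883 genes, with medians of 1.24 and 0.39. The plp1b-low kind made up 15 of 32 lesion and 6 of 35 sham cells, so a sum over all cells differs with that makeup. GRIA2 on chromosome 14, for example, was at 141 CPM over all sham and 366 CPM over all lesion cells while it was slightly lower after the lesion among plp1b-low cells. Its plp1b-low reads all came from cells with olig1, a lineage factor taken up below. Those cells were 5 of 6 sham and 6 of 15 lesion plp1b-low cells. The part of this share in the plp1b-low difference was not tested.

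Genes that anchor, traffic or modify these receptors were looked at through a list of 56 names, which matched 82 genes. In sham cells 30 of 42 compared were at least 2-fold higher and 8 lower in plp1b-low cells, beside 35.6% and 43.6% of all genes, with a median log2 ratio of 3.97 against −0.46. In lesion cells 33 of 48 were higher and 6 lower, beside 47.1% and 26.9% of all genes, with a median of 3.34 against 0.84. The leading genes per length act on AMPA receptors or on the postsynaptic scaffold. NPTX1, a secreted pentraxin that clusters AMPA receptors, was at 322 CPM in the sham and 131 CPM in the lesion plp1b-low cells, and nptxrb, a gene of the pentraxin receptor, at 75.7 and 144 CPM. CACNG2, or stargazin, which carries AMPA receptors to the membrane, was at 230 CPM in the sham and 32.7 CPM in the lesion plp1b-low cells, and HOMER1, a scaffold of group I metabotropic receptors, at 182 and 86.3 CPM. NPTX1 reached 5 reads in 4 sham and 4 lesion cells of this kind, nptxrb in 2 and 5, and CACNG2 in 5 and 2. HOMER1 did so in 3 of the 6 sham cells, and its lesion value came with 1 of 15 cells at 5 reads. In plp1b-high cells these 4 genes were at 0 or under 1 CPM. Between operations, in plp1b-low cells, 19 of 53 list genes were higher and 19 lower after the lesion, beside 52.8% and 24.9% of all genes, with a median of 0.31 against 1.204.

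Receptors for other transmitters were fewer. A list of 77 names matched 94 genes, of which 8 were compared in sham cells (4 higher and 2 lower in plp1b-low cells) and 10 in lesion cells (8 higher and 1 lower), beside the same shares of all genes as above. GPR17, a G protein-coupled receptor of committed oligodendrocyte precursors in rodents, was at 175 CPM in the sham and 70.2 CPM in the lesion plp1b-low cells. It was detected in 1 sham cell and 2 lesion cells, none of which had GRIA2 on chromosome 14. GLRB, the glycine receptor beta subunit that binds gephyrin, was at 108 CPM in the sham and 14.01 CPM in the lesion plp1b-low cells, although no alpha subunit was detected in the sham ones. GLRB reached 5 reads in 2 sham and 2 lesion cells. The ATP-gated channel p2rx7 was present in all 4 classes, at 96.4, 163, 201 and 143 CPM in sham high, sham low, lesion high and lesion low cells. It was detected in 5 of 29, 1 of 6, 8 of 17 and 4 of 15 cells in that order. The dopamine receptor drd4a was at 12.3 CPM in the sham and 61.5 CPM in the lesion plp1b-high cells, and at 0 and 0.33 CPM in the plp1b-low ones. It reached 5 reads in 1 sham and 5 lesion plp1b-high cells.

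More neuron markers were detected in plp1b-low than in plp1b-high cells, though not every marker ran that way. Of 41 matched neuron markers, 18 were detected in sham and 23 in lesion plp1b-low cells, against 7 and 5 in plp1b-high cells. Their summed level per cell ran from 235 to 6102 CPM in sham and from 82.9 to 11594 CPM in lesion plp1b-low cells, and from 0 to 3152 CPM and 10.6 to 2012 CPM in plp1b-high cells. SNAP25 (ENSDARG00000020609), of the vesicle fusion machinery, reached 5 reads in 5 of the 6 sham and 11 of the 15 lesion plp1b-low cells. ELAVL3 went the other way in sham cells, at 260 CPM in plp1b-high and 24.5 CPM in plp1b-low cells. It was detected in 14 and 2 of those cells. In lesion cells it was at 252 and 232 CPM. Of 20 neuron markers compared in sham cells, 16 were at least 2-fold higher and 2 lower in plp1b-low cells, beside 35.6% and 43.6% of all genes. Their median log2 ratio was 4.95, that of all genes −0.46. In lesion cells 20 of 23 were higher and 1 lower, beside 47.1% and 26.9% of all genes, with medians of 5.35 and 0.84. RBFOX3, a marker of mature neurons, and GAD1 and SLC32A1, of inhibitory ones, were at 0 or at 1 read in plp1b-low cells. Other transmitter genes had reads in lesion plp1b-low cells: GAD2, of GABA synthesis, had 44 reads and reached 5 in 1 cell, and SLC17A6 on chromosome 7, a vesicular glutamate transporter, had 67 and reached 5 in 2 cells. The cholinergic genes CHAT and SLC18A3 reached 5 reads in 4 and 3 of these cells. In sham plp1b-low cells CHAT had 3 reads and the other 3 genes had 0. The motor neuron genes ISL1 and MNX1 were detected together in 3 lesion plp1b-low cells and in no sham cell. Those were lesion cells 3, 8 and 15, with 1, 4 and 1 members detected. FOXJ1, of ciliated cells, was detected in 5 lesion plp1b-low cells and 1 lesion plp1b-high cell. The ependymo-radial glia list summed to medians of 8496 CPM (sham) and 10085 CPM (lesion) in plp1b-low cells, beside 7496 and 5691 CPM in plp1b-high cells. These sums hide opposite directions. In sham cells 5 of 14 list genes were at least 2-fold higher and 8 lower in plp1b-low cells. In lesion cells 11 of 23 were higher and 8 lower, beside 47.1% and 26.9% of all genes. FABP7 was at 4960 (sham) and 5032 CPM (lesion) in plp1b-low cells, against 72.0 and 62.0 CPM in plp1b-high cells. GLUL (ENSDARG00000099776) was at 1490 and 496 CPM against 4240 and 2914 CPM. Microglia and macrophage markers had medians of 0 and 2.49 CPM, and endothelial, pericyte and fibroblast markers of 0.76 and 139 CPM, in sham and lesion plp1b-low cells. Schwann cell markers, which share myelin and SOX10 genes with oligodendrocytes, had medians of 1347 and 499.9 CPM there. The part of these cell types in the receptor levels was not tested.

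More OPC markers were detected in plp1b-low cells, 19 of 30 in sham and 24 in lesion cells, against 10 in each plp1b-high class. In sham cells 15 of 19 compared were at least 2-fold higher and 2 lower in plp1b-low cells, beside 35.6% and 43.6% of all genes. Their median log2 ratio was 6.11, that of all genes −0.46. In lesion cells 20 of 25 were higher and 3 lower, beside 47.1% and 26.9%, with medians of 3.80 and 0.84. Of the class sums, olig2 took 8728 of 10505 CPM (sham) and 8461 of 10379.5 CPM (lesion) in plp1b-high cells. In plp1b-low cells it took 4890 of 10988 and 5750 of 9942 CPM. The summed level of the list per cell overlapped between the classes. It ran from 9205 to 13463 CPM with a median of 11240 in sham plp1b-low cells and from 720 to 26270 CPM with a median of 5729 in lesion ones. In plp1b-high cells it ran from 3376 to 19653 CPM with a median of 9512 in sham and from 4128 to 20846 CPM with a median of 9763 in lesion cells. olig1, a transcription factor of the oligodendrocyte lineage, was also detected in plp1b-high cells, in 10 of 29 sham and 5 of 17 lesion ones. No cell of those 2 classes had more than 3 (sham) or 2 (lesion) members. In sham plp1b-low cells olig1 was detected in 5 of 6, and these had 7 to 11 members. The cell without it had 2. In lesion plp1b-low cells, the 6 with olig1 had 1 to 16 members with a median of 8, and the 9 without it had 1 to 5 with a median of 1. GRIA2 on chromosome 14 was detected in 5 of those 6 cells and in none of those 9. Among olig1-positive plp1b-low cells alone, the log2 ratio of GLRA2 between lesion and sham was 6.33 and that of GRIA2 on chromosome 1 was 1.25. Lesion cell 10 held 666 of the 1325 lesion plp1b-low reads of this GRIA2 gene. Other members changed in that subset too. All plp1b-low reads of GRIA2 on chromosome 14 and of GRM4 lay in olig1-positive cells, so their ratios were higher there than over all plp1b-low cells. For GRIA2 on chromosome 14 the direction turned, with the higher level after the lesion among olig1-positive plp1b-low cells.

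At the threshold of 5 reads, the members just inside it were 3 genes whose highest cell had fewer than 10 reads, GRIA3 on chromosome 14 at 5 reads, GLRA3 at 6 and grin2ab at 7. Just outside it lay 3 matching genes whose highest cell had 3 or 4 reads, and 25 of the 56 matching genes below it had no read at all. Beyond the 20 members that reached 20 CPM in a class and detection in 20% of its cells, the other 23 had their 5 or more reads in 1 to 5 cells each.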

How the data were processed

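Each sample was 1 sorted cell, grouped by its treatment label. The table the authors deposited holds raw, unnormalized read counts per gene. The submitters' processing notes name bcl2fastq 2.19.1, GSNAP (2018-05-30) on GRCz10 and featureCounts 1.6.2, and the file header gives 1.6.3 for the last. Counts were made on Ensembl release 87 genes, per the file headers, without strand, at a mapping quality of at least 1 and with no option for multi-mapped reads, so paralogs with shared symbols and overlapping or antisense genes are uncertain. The library kit is not given in the sources used here.

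All 67 cells were used, no doublet caller was applied, and 92 spike-in sequences with 71 reads were left out. Symbols came from a table of gene names that covers 26433 of the gene IDs and spells many zebrafish genes as in human. Reads of a class were summed and scaled to CPM with Python 3.11.15, and a ratio was log2 after adding 1 CPM to each class. Genes needed 5 reads in 1 compared cell, and 2-fold counted as a difference. Sums carry exact Poisson and shares exact Clopper-Pearson 95% intervals. A class at 0 was set against 3 counts over the class. TMM and median-of-ratios factors came from edgeR 4.0.16.

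Values per cell are given for members with 20 CPM and detection in 20% of the cells of a class, at most 14 by level per length. Named beside them are the 6 most different such members per direction and comparison, the 4 leading genes of other lists, and members with reads in few cells. Of the 43 members, 3 are not reported singly here. Members and lists were chosen with earlier results of these data known. The calculation was tested on simulated Poisson counts with the same gene shares in every cell of a class. That setting lacks the spread between cells seen here, so it checks the arithmetic only.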

Additional observations from a re-analysis of the deposited data

How the results depend on the processing

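Counts of members at least 2-fold apart changed with how few cells may carry a gene. With 5 reads in 3 cells required, 19 members were left over all cells. Each comparison asked for 3 of its own cells, so its counts are out of 19 members at most. Shares of all genes were not counted under these alternatives, so the counts below only describe the members. The counts higher and lower were then 5 and 0 for plp1b-low against plp1b-high sham cells (24 and 2 before) and 12 and 0 in lesion cells (28 and 2). For lesion against sham they were 5 and 4 in plp1b-low cells (17 and 11), 1 and 0 in plp1b-high cells (4 and 5) and 12 and 3 over all cells (23 and 10). In another setting, each member's highest cell was left out of both compared classes. That gave 15 higher in sham cells, and 16 higher and 1 lower in lesion cells. For lesion against sham it gave 11 higher in plp1b-low cells, 2 higher and 1 lower in plp1b-high cells, and 14 higher over all cells. Adding 10 CPM in place of 1 gave 1 lower in sham and 0 lower in lesion cells, and, for lesion against sham, 10 higher in plp1b-low cells, 1 and 1 in plp1b-high cells, and 12 and 3 over all cells.

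TMM or median-of-ratios factors gave 4 lower in sham cells with either method. They moved the median log2 ratio of all genes by −0.71 and −0.65 there, −0.42 and −0.34 in lesion cells, 0.18 and 0.18 for lesion against sham in plp1b-low cells, −0.15 and −0.09 in plp1b-high cells and −0.22 and −0.27 over all cells. Plate rows B to E alone gave 4 lower in sham and 0 lower in lesion cells, and 2 higher between operations in plp1b-high cells. Rows F to H gave 1 lower in sham cells, 14 higher in lesion cells, 7 higher between operations in plp1b-low cells, 2 lower in plp1b-high cells and 14 higher over all cells. Counting 1 read as detection set the median members per cell to 2 in both plp1b-high classes (0 in sham and 1 in lesion cells before), and leaving out GRID2IP set the lesion one to 0. Directions turned for GRIA1 on chromosome 14 (−2.62) and GRM4 (−0.89) in rows F to H, for GRM4 without 1 cell (−1.73) and for GRIA4 without 1 cell (−0.77), all for lesion against sham in plp1b-low cells. The cause was not tested. Of the log2 ratios of named members under the alternatives, 206 stayed within the counting interval of the reported ratio, and 152 others left it or came from leaving out a cell, with no called direction turned. Another 98 counts stayed within 1.5 times, and 21 medians within the spread of cells. No paired analysis was possible because each operation was 1 pool and no test was made. With 1 pool per operation, the spread between fish is unknown, and a gene with no read in 6 cells may be present in cells not sampled.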
